A study of Homo sapiens with 4 samples.

Results

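The genes described are 10 genes of ferritin and iron handling, chosen by symbol among the 60487 genes of each file. The choice was made with earlier results of these data known. They are the ferritin chains FTL and FTH1, the import genes TF, TFRC and SLC11A2, the exporter SLC40A1, the heme-degrading HMOX1, the ferritin receptor NCOA4, and the iron regulatory proteins ACO1 and IREB2. A clone-named row, AC026803.1, is given beside them because its locus in the files is that of FTL. RNA came from HCC1937, an established breast cancer line that lacks functional BRCA1. The 4 groups were wtBRCA1 cells under OTX-015, wtBRCA1 cells under DMSO, vector cells under OTX-015 and vector cells under DMSO, with 1 library each. The wtBRCA1 cells carry restored wild-type BRCA1 and have the genotype label wild type, while the vector cells carry the vector and have the label BRCA1 -/-. OTX-015 (birabresib) is an inhibitor of BET bromodomain proteins, readers of acetylated histones that aid transcription, and DMSO is its solvent. The sources used here give no dose, no treatment time and no word on whether each line is a clone or a pool.

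Iron enters most cells as transferrin bound to the transferrin receptor, and iron not in use is stored inside ferritin, a hollow shell of heavy (FTH1) and light (FTL) chains. Iron regulatory proteins bind hairpins called iron responsive elements in messenger RNA when cellular iron is low. Binding near the start of a ferritin or ferroportin message blocks its translation, and binding after the coding part of the TFRC message stabilises it, so message and protein levels of these genes need not move together.

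The iron responsive elements are shown because they are the shared control element of the storage, export and import messages measured here. The transcripts of 8 of the 10 genes were searched, in GENCODE 29 on hg38 and on the transcript strand only, for a C, 5 bases, the loop CAGTGN with a last base other than G, and 5 bases able to pair with the first 5 (G with T allowed). The printed bases run 5′ to 3′ with the loop in capitals. The FTL element lies in the 5′ UTR at chr19:48965335-48965363 (plus strand) and that of SLC40A1 in the 5′ UTR at chr2:189580661-189580689 (minus strand). The 4 TFRC matches lie in the 3′ UTR on the minus strand, at chr3:196050979-196051007, chr3:196050575-196050603, chr3:196050510-196050538 and chr3:196050463-196050491.
FTL: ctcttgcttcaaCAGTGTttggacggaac
SLC40A1: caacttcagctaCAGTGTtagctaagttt
TFRC site 1: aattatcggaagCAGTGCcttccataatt
TFRC site 2: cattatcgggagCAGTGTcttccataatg
TFRC site 3: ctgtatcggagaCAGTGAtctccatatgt
TFRC site 4: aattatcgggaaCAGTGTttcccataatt
The loop ended in T in the FTL, SLC40A1 and TFRC site 2 and site 4 elements, in C in TFRC site 1 and in A in TFRC site 3. The pattern also matched once in the 3′ UTR of TF, at chr3:133792673-133792701, past position 133779006 where the quantified TF locus ends. Thus 4 of the 8 genes held a match, against 214 of 19702 protein-coding genes (1.09%) with a match anywhere in a transcript. The pattern describes the element by which FTL, SLC40A1 and TFRC are known to be controlled, so this contrast is not a test. FTH1 and HMOX1 were not searched. A match describes letters and does not show that a protein binds there. Elements with another loop or with unpaired arm bases are missed by this pattern. The matches are therefore no full count of elements, and a gene without a match may still hold one.

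Values are the authors' FPKM (fragments per kilobase of transcript, scaled to the number of mapped fragments), a level per length. They summed to 1477103 and 1496107 in the OTX-015 libraries of wtBRCA1 and vector cells and to 962378 and 909314 in their DMSO libraries, and 15004 to 15669 genes reached 1 FPKM. The depth is unknown, because the files hold no counts. BRCA1 stood at 2712 and 171 FPKM in wtBRCA1 cells under OTX-015 and DMSO, and at 40.8 and 37.2 FPKM in vector cells under OTX-015 and DMSO. All 7 breast epithelium markers searched (such as EPCAM, CDH1 and KRT8) reached 1 FPKM, while all 5 erythroid markers were listed at 0 in every library. The epithelial markers differed between the lines in opposite directions. KRT5, a basal keratin, had 573 and 980 FPKM in wtBRCA1 cells and 23.2 and 29.4 FPKM in vector cells under OTX-015 and DMSO. KRT8, a luminal keratin, had 4476 and 3185 FPKM in wtBRCA1 cells and 23339 and 8160 FPKM in vector cells under OTX-015 and DMSO. Its partner KRT18 had 125 and 108 FPKM in wtBRCA1 cells and 744 and 349 FPKM in vector cells under OTX-015 and DMSO. The part of this shift in the line differences of the iron genes was not tested. With 1 library per group no pair of libraries could be tested and no order of levels between neighbouring groups has a spread to be set against. The tested effects come from limma on log2(FPKM + 1) with line and treatment as terms, Benjamini-Hochberg adjustment over 18296 genes and a threshold of 0.05. Each gene has 1 residual degree of freedom, and the standard errors (SE) borrow from all genes. An adjusted p thus sets an effect against its difference across the other factor, pooled over genes, not against the spread between cultures. A call therefore does not show that both lines or both treatments gave a like effect. TFRC passed for OTX-015 with differences of 1.95 in vector cells and 0.40 in wtBRCA1 cells. The words rose, fell and changed are kept for effects past this threshold.

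In the effect over both lines, FTL, HMOX1 and TFRC rose under OTX-015, and none of the other iron genes changed. AC026803.1 rose as well, whereas FTH1, the partner chain of the same shell, did not pass the test. Thus 3 of the 9 genes that passed the filter on low values rose and 0 fell, while of all 18296 genes 3.66% rose and 2.67% fell (6.32% together). The median effect of the 9 genes was 0.34, against 0.03 for all genes, in log2 units. Across both treatments, TF rose and FTL fell in wtBRCA1 cells relative to vector cells. Thus 1 of 9 genes rose and 1 fell, while of all genes 4.88% rose and 3.41% fell (8.29% together), and the median effect of the 9 was −0.46, against 0.05 for all genes. The remaining gene, SLC40A1, was listed at 0 throughout and did not pass the filter. The OTX-015 calls of FTL and HMOX1 were lost with no filter on low values, with quantile scaling, without the variance trend and with treatment as the only term. The OTX-015 call of TFRC was weaker, and held in 0 of 9 other settings of the processing. For the line effect, FTL held in 4 of these 9 settings and TF in 9. With 1 library left out, only the tested factor could stay as a term, and none of the 18296 genes passed, so those fits give sizes but no calls. In them the OTX-015 effect was 1.12 to 2.59 for FTL, 1.69 to 2.46 for HMOX1 and 0.51 to 1.83 for TFRC, and the line effect on TF was 4.87 to 5.62.

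**Figure D1:**
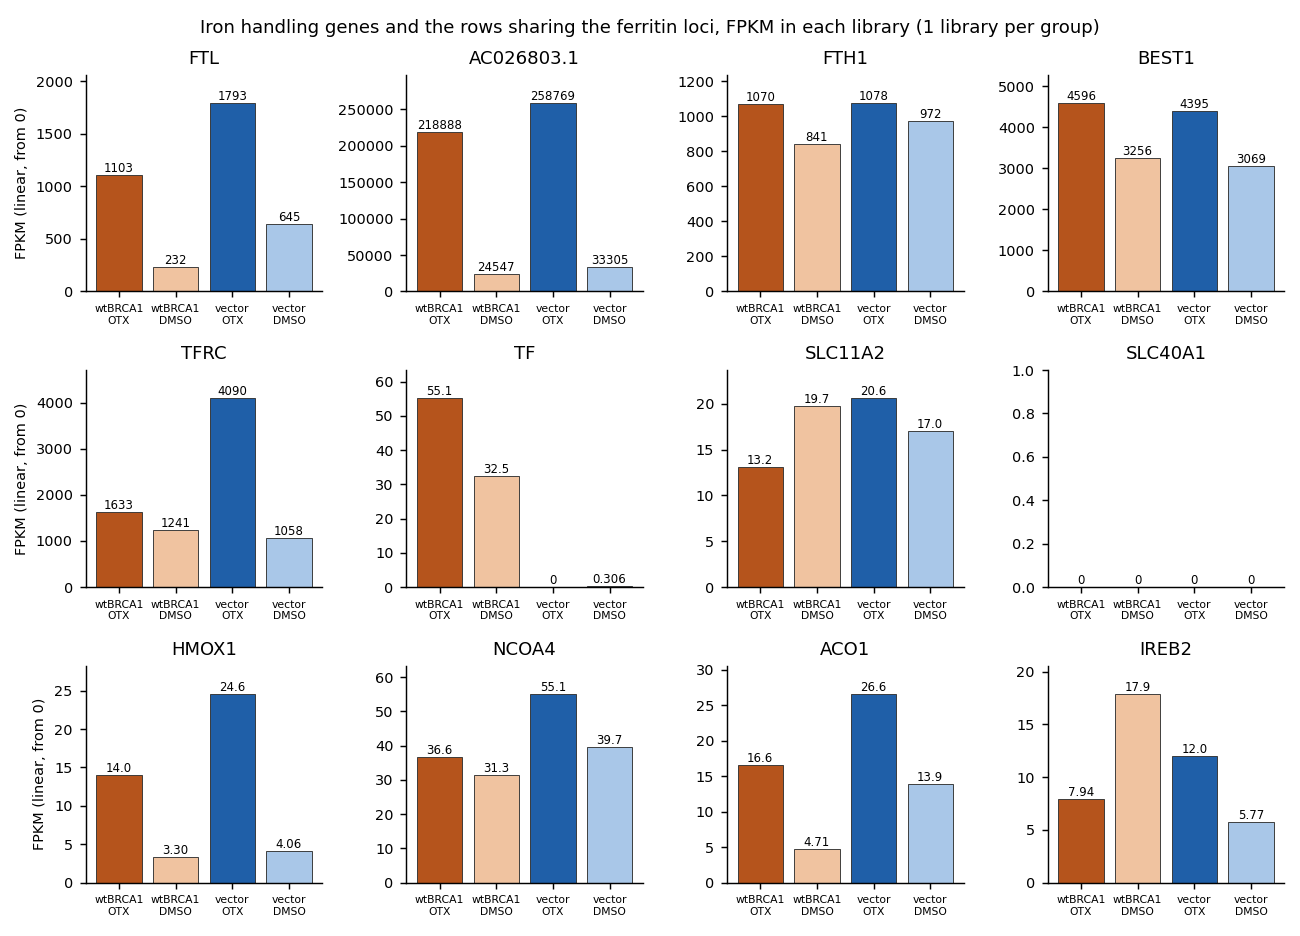
FPKM (linear axes from 0) of the 10 iron genes and of the rows at the ferritin loci, AC026803.1 and BEST1, 1 bar per library, with wtBRCA1 cells left of vector cells and OTX-015 left of DMSO. Both OTX-015 bars stand above both DMSO bars for FTL, AC026803.1, HMOX1 and TFRC, and TF reaches 55.1 and 32.5 FPKM in wtBRCA1 cells against 0 and 0.306 FPKM in vector cells.

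FTL (ENSG00000087086, chr19:48965301-48966878, plus strand), the ferritin light chain, which helps to mineralise stored iron, had 1103 FPKM in wtBRCA1 cells under OTX-015 and 232 FPKM in wtBRCA1 cells under DMSO. In vector cells it had 1793 FPKM under OTX-015 and 645 FPKM under DMSO. Both OTX-015 libraries stood above both DMSO libraries, and under each treatment wtBRCA1 cells stood below vector cells. The OTX-015 to DMSO ratio was 4.76 in wtBRCA1 cells and 2.78 in vector cells. The OTX-015 effect over both lines was a rise of 1.86 ± 0.23 log2 units (SE; limma, adjusted p = 0.00329). The ratio of wtBRCA1 to vector cells was 0.615 under OTX-015 and 0.360 under DMSO. The line effect over both treatments was −1.09 ± 0.23 (SE; limma, adjusted p = 0.0193), which is a fall in wtBRCA1 cells. Without the wtBRCA1 DMSO library, and with line as the only term, this effect was 0.0365, in a fit where the treatments were no longer balanced between the lines. The iron responsive element printed above lies within this locus, but its function cannot be read from message levels.

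AC026803.1 (ENSG00000281206) was the row with the highest FPKM in all 4 libraries. It stood at 218888 FPKM in wtBRCA1 cells under OTX-015 and 24547 FPKM in wtBRCA1 cells under DMSO, and at 258769 FPKM in vector cells under OTX-015 and 33305 FPKM in vector cells under DMSO. Its share of the summed FPKM was 14.8% and 17.3% in the OTX-015 libraries of wtBRCA1 and vector cells, and 2.55% and 3.66% in their DMSO libraries. Its OTX-015 to DMSO ratios, 8.92 in wtBRCA1 cells and 7.77 in vector cells, were larger than those of FTL. The row rose by 3.06 ± 0.07 log2 units under OTX-015 (SE; limma, adjusted p = 3.15e-08) and fell in wtBRCA1 cells, with a line effect of −0.34 ± 0.07 (SE; limma, adjusted p = 0.0162). The SE of the OTX-015 effect depends on the variance trend. Without the trend it was 0.35, and the effect did not pass (limma, adjusted p = 0.150). Of 9 other settings of the processing, the OTX-015 call held in 6 and the line call in 3. The line ratios of the row were 0.846 under OTX-015 and 0.737 under DMSO. The line effect was 1.14 without the vector OTX-015 library and 1.24 without the wtBRCA1 DMSO library, again in unbalanced fits with line as the only term.

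The identity of this row is limited by its annotation. The files give it exactly the FTL locus, but its identifier is not in GENCODE 29, where the name AC026803.1 belongs to another gene (ENSG00000260366) at chr19:48926171-48926444. Its transcript length is not in the files, so its share of the summed FPKM is not its share of reads. The row exceeded FTL 198-fold and 106-fold in wtBRCA1 cells under OTX-015 and DMSO, and 144-fold and 51.6-fold in vector cells under OTX-015 and DMSO. Reads of an FTL message could have been divided between these rows in the authors' quantification, and how they were divided was not tested. With both rows summed, the OTX-015 effect was 3.05 and the line effect −0.35, and both stayed past the threshold. AC026803.1 made up nearly all of this sum, so these effects repeat those of that row. They are no check on the calls of FTL.

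FTH1 (ENSG00000167996, chr11:61959718-61967660 in GENCODE 29, minus strand), the ferritin heavy chain and the shell's iron oxidase, had 1070 FPKM in wtBRCA1 cells under OTX-015 and 841 FPKM in wtBRCA1 cells under DMSO. In vector cells it had 1078 FPKM under OTX-015 and 972 FPKM under DMSO. The OTX-015 libraries stood above the DMSO libraries, by ratios of 1.27 in wtBRCA1 cells and 1.11 in vector cells. The OTX-015 effect of 0.25 ± 0.18 did not pass the test (SE; limma, adjusted p = 0.471), and it was −0.19 under quantile scaling. The line effect of −0.11 ± 0.18 did not pass either (SE; limma, adjusted p = 0.755).

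FTH1 shares its locus in the files with BEST1 (ENSG00000167995), bestrophin, a chloride channel best known from the retinal pigment epithelium. In GENCODE 29 these genes lie on opposite strands, and 1267 of the 2030 exonic bases of FTH1 (62.4%) are exonic in BEST1 too. BEST1 was listed at 4596 FPKM in wtBRCA1 cells under OTX-015 and 3256 FPKM in wtBRCA1 cells under DMSO, and at 4395 and 3069 FPKM in vector cells under OTX-015 and DMSO. It thus exceeded FTH1 4.30-fold and 3.87-fold in wtBRCA1 cells under OTX-015 and DMSO, and 4.08-fold and 3.16-fold in vector cells under OTX-015 and DMSO. The library kit marks strand, but the sources used here do not say whether the quantification used strand, so reads of FTH1 and BEST1 may not be told apart. The OTX-015 effect on BEST1 was 0.51 ± 0.13 (SE; limma, adjusted p = 0.0541), and that on the sum of both rows was 0.45 (limma, adjusted p = 0.0623).

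The level of FTL over that of FTH1 differed between the libraries as listed. It was 1.03 in wtBRCA1 cells under OTX-015 and 0.276 in wtBRCA1 cells under DMSO, and 1.66 in vector cells under OTX-015 and 0.664 in vector cells under DMSO. Both DMSO libraries had more FTH1 than FTL, and both OTX-015 libraries had more FTL than FTH1. This ratio leaves out AC026803.1 and BEST1.

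Ferritin pseudogenes, processed copies of these messages elsewhere in the genome, were followed because near-identical copies can take reads from the parent gene. Of 41 rows named as FTH1 or FTL pseudogenes, 27 were at 0 in every library and 13 were tested. Only FTLP3 among them changed under OTX-015 (7.69%, against 6.32% of all genes), and none changed between the lines (against 8.29% of all genes). FTLP3 had 82.6 and 21.2 FPKM in wtBRCA1 cells under OTX-015 and DMSO, and 108 and 43.7 FPKM in vector cells under OTX-015 and DMSO. It rose by 1.60 ± 0.32 under OTX-015 (SE; limma, adjusted p = 0.0216). The order of its 4 libraries was that of FTL, and also that of AC026803.1 and FTH1. How many of all genes share this order was not counted. The 16 FTL pseudogenes summed to 86.2 and 21.6 FPKM in wtBRCA1 cells under OTX-015 and DMSO, ratio 3.99, and to 110 and 45.5 FPKM in vector cells under OTX-015 and DMSO, ratio 2.43. The 25 FTH1 pseudogenes summed to 815 and 546 FPKM in wtBRCA1 cells under OTX-015 and DMSO, ratio 1.49, and to 933 and 497 FPKM in vector cells under OTX-015 and DMSO, ratio 1.88. FTH1P20 held the most, with 472 and 337 FPKM in wtBRCA1 cells and 546 and 306 FPKM in vector cells, under OTX-015 and DMSO. How many of these reads came from the parent genes was not tested.

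**Figure D2:**
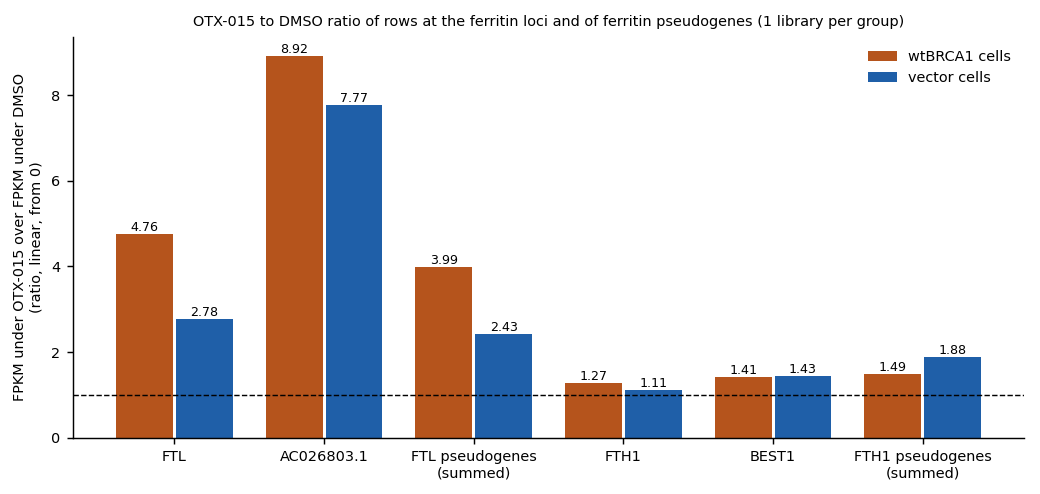
Ratio of FPKM under OTX-015 to FPKM under DMSO (linear axis from 0, dashed line at 1) for the rows at the ferritin loci and the summed ferritin pseudogenes, with wtBRCA1 cells left of vector cells. FTL and the FTL pseudogenes reach 2.43 to 4.76, and AC026803.1, whose identity is uncertain, reaches 7.77 and 8.92. FTH1, BEST1 and the FTH1 pseudogenes lie between 1.11 and 1.88.

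Among the import genes, TF differed between the lines, and TFRC was high in the vector OTX-015 library. TF (ENSG00000091513, chr3:133745956-133796640 in GENCODE 29, plus strand) encodes transferrin, the plasma iron carrier made mainly by the liver. It had 55.1 FPKM in wtBRCA1 cells under OTX-015 and 32.5 FPKM in wtBRCA1 cells under DMSO, and was listed at 0 in vector cells under OTX-015 and at 0.306 FPKM in vector cells under DMSO. The message was thus present in both wtBRCA1 libraries and near or at 0 in both vector libraries. No ratio is given, because vector cells were listed at 0 under OTX-015 and close to it under DMSO. TF rose in wtBRCA1 cells, with a line effect of 5.25 ± 0.41 (SE; limma, adjusted p = 0.000127). Its size depends on the pseudocount, with 7.72 at 0.1 and 3.20 at 5, and it passed under both. Within wtBRCA1 cells the OTX-015 to DMSO ratio was 1.69, and the OTX-015 effect over both lines was 0.18 ± 0.41 (SE; limma, adjusted p = 0.830).

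The TF difference was set beside markers of hepatocytes, the main source of transferrin. ALB, APOA1, TTR and FGB were listed at 0 in all 4 libraries, and SERPINA1 was at 1.83 and 1.88 FPKM in wtBRCA1 cells under OTX-015 and DMSO, and at 0 and 0.355 FPKM in vector cells under OTX-015 and DMSO. SERPINA1, also made in some epithelia, was the only 1 of the 5 above 0 in any library. CD14, a macrophage marker, had 5.62 and 9.51 FPKM in wtBRCA1 cells and 0 and 0.109 FPKM in vector cells under OTX-015 and DMSO, while CD163 was at 0 throughout. The macrophage marker CSF1R went the other way, with 1.28 and 0 FPKM in wtBRCA1 cells and 1.73 and 0.805 FPKM in vector cells under OTX-015 and DMSO. PTPRC did not exceed 0.225 FPKM. CD68 had 44.5 and 21.9 FPKM in wtBRCA1 cells and 24.8 and 15.5 FPKM in vector cells under OTX-015 and DMSO. The part of these markers in the TF difference was not tested. In such bulk RNA, more cells with a message cannot be told apart from more message per cell. No other row at the TF locus exceeded 0.523 FPKM in any library.

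TFRC (ENSG00000072274, chr3:196027183-196082189, minus strand), the receptor that takes up iron-loaded transferrin, had 1633 FPKM in wtBRCA1 cells under OTX-015 and 1241 FPKM in wtBRCA1 cells under DMSO. In vector cells it had 4090 FPKM under OTX-015 and 1058 FPKM under DMSO. The vector OTX-015 library stood far above the other 3, which lay within 1058 to 1633 FPKM. The OTX-015 to DMSO ratio was 1.32 in wtBRCA1 cells and 3.87 in vector cells. Under quantile scaling the OTX-015 minus DMSO difference was −0.16 log2 units in wtBRCA1 cells and 1.48 in vector cells. The OTX-015 effect over both lines was a rise of 1.17 ± 0.30 (SE; limma, adjusted p = 0.0476), close to the threshold. The call was lost under all 9 other settings of pseudocount, filter, scaling, variance model and terms, with adjusted p up to 0.538. The line effect of −0.55 ± 0.30 did not pass (SE; limma, adjusted p = 0.307), and the ratio of wtBRCA1 to vector cells was 0.399 under OTX-015 and 1.17 under DMSO. Control through elements such as those printed above acts on the stability of this message, which its level does not separate from its synthesis.

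SLC11A2 (ENSG00000110911, chr12:50979401-51028566, minus strand) encodes DMT1, which moves ferrous iron across the cell and endosome membranes. It had 13.2 FPKM in wtBRCA1 cells under OTX-015 and 19.7 FPKM in wtBRCA1 cells under DMSO, and 20.6 and 17.0 FPKM in vector cells under OTX-015 and DMSO. Its libraries overlapped between treatments and between lines. Neither the OTX-015 effect of −0.14 ± 0.36 (SE; limma, adjusted p = 0.844) nor the line effect of −0.20 (limma, adjusted p = 0.773) passed. SLC40A1 (ENSG00000138449, chr2:189560579-189583758, minus strand), ferroportin, the known exporter of cellular iron, was listed at 0 in all 4 libraries and was not tested.

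HMOX1 (ENSG00000100292, chr22:35380361-35394214, plus strand) encodes heme oxygenase 1, the inducible enzyme that opens heme and frees its iron. It had 14.0 FPKM in wtBRCA1 cells under OTX-015 and 3.30 FPKM in wtBRCA1 cells under DMSO. In vector cells it had 24.6 FPKM under OTX-015 and 4.06 FPKM under DMSO. Both OTX-015 libraries stood above both DMSO libraries, at ratios of 4.26 in wtBRCA1 cells and 6.05 in vector cells. The OTX-015 effect was a rise of 2.07 ± 0.37 (SE; limma, adjusted p = 0.0151). The order of the 4 libraries was that of FTL, which AC026803.1 and FTH1 had too. The share of all genes with this order was not counted. Levels in wtBRCA1 cells were 0.571 and 0.812 of those in vector cells under OTX-015 and DMSO, and the line effect of −0.50 ± 0.37 did not pass (SE; limma, adjusted p = 0.458).

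NCOA4 (ENSG00000266412, chr10:46005088-46030714, minus strand) is the receptor that carries ferritin to the lysosome, where its iron is released. It had 36.6 and 31.3 FPKM in wtBRCA1 cells under OTX-015 and DMSO, and 55.1 and 39.7 FPKM in vector cells under OTX-015 and DMSO. The wtBRCA1 libraries lay below both vector libraries, but neither the OTX-015 effect of 0.34 ± 0.31 (SE; limma, adjusted p = 0.571) nor the line effect of −0.46 (limma, adjusted p = 0.425) passed.

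The iron regulatory proteins differed from each other in their order across the libraries. ACO1 (ENSG00000122729, chr9:32384603-32454769, plus strand), which is the cytosolic aconitase when it holds an iron-sulfur cluster and iron regulatory protein 1 when it does not, had 16.6 and 4.71 FPKM in wtBRCA1 cells under OTX-015 and DMSO. In vector cells it had 26.6 FPKM under OTX-015 and 13.9 FPKM under DMSO. Both OTX-015 libraries stood above both DMSO libraries, but the OTX-015 effect of 1.26 ± 0.36 (SE; limma, adjusted p = 0.0722) did not pass. The order of the 4 libraries was that of FTL, AC026803.1 and FTH1, and its share among all genes was not counted. The ratios to DMSO were 3.53 in wtBRCA1 cells and 1.91 in vector cells. The line effect of −1.02 ± 0.36 did not pass either (SE; limma, adjusted p = 0.124).

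IREB2 (ENSG00000136381, chr15:78437431-78501456, plus strand), iron regulatory protein 2, which is broken down when iron is plentiful, had 7.94 FPKM in wtBRCA1 cells under OTX-015 and 17.9 FPKM in wtBRCA1 cells under DMSO. In vector cells it had 12.0 FPKM under OTX-015 and 5.77 FPKM under DMSO. The treated library was the lower of the pair in wtBRCA1 cells and the higher in vector cells, with ratios of 0.444 and 2.08. The mean OTX-015 effect was accordingly near 0, at −0.07 ± 0.48 (SE; limma, adjusted p = 0.947), and the effect of line was 0.47 ± 0.48 (SE; limma, adjusted p = 0.608).

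**Figure D3:**
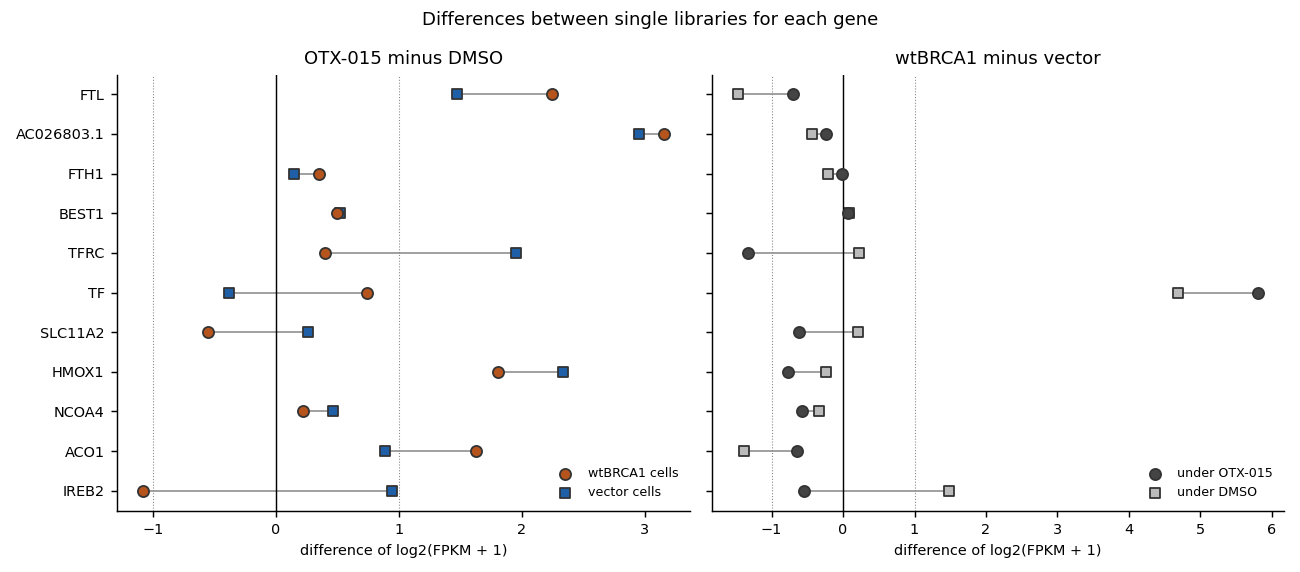
Differences of log2(FPKM + 1) between single libraries for each tested gene, OTX-015 minus DMSO on the left (wtBRCA1 cells, circles; vector cells, squares) and wtBRCA1 minus vector on the right (under OTX-015, circles; under DMSO, squares), with dotted lines at 1 and −1. FTL, AC026803.1 and HMOX1 lie beyond 1 in both lines, whereas the symbols of TFRC and IREB2 lie far apart.

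For single pairs of libraries, a 2-fold difference (1 unit of log2(FPKM + 1)) served as a description without a test, so the vector pair of IREB2, with an FPKM ratio of 2.08 and a difference of 0.94, lay just inside it. In wtBRCA1 cells FTL, HMOX1 and ACO1 were at least 2-fold higher under OTX-015 than under DMSO and IREB2 was at least 2-fold lower, 4 of 9 genes against 26.4% of all genes (13.0% higher and 13.4% lower). In vector cells FTL, TFRC and HMOX1 were at least 2-fold higher under OTX-015 and none was lower, 3 of 9 genes against 25.7% of all genes (13.0% higher and 12.7% lower). Under OTX-015, TF was at least 2-fold higher and TFRC at least 2-fold lower in wtBRCA1 than in vector cells, 2 of 9 genes against 27.7% of all genes (15% higher and 12.6% lower). Under DMSO, TF and IREB2 were at least 2-fold higher and FTL and ACO1 at least 2-fold lower in wtBRCA1 than in vector cells, 4 of 9 genes against 26.5% of all genes (14.8% higher and 11.7% lower). These line pairs use the same 4 libraries as the treatment pairs and are not independent of them. None of these shares was tested against the background. Under quantile scaling the OTX-015 minus DMSO difference of FTL in vector cells was 0.93, just inside 2-fold. The summed FPKM was higher in both OTX-015 libraries, and its part in these differences was not tested.

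The response to OTX-015 itself differed between the lines by at least 1 log2 unit for 3 of the 9 genes, against 27.2% of all genes (13.2% higher and 14.0% lower in wtBRCA1 cells). The response in wtBRCA1 cells minus that in vector cells was −2.02 for IREB2, −1.55 for TFRC and 1.13 for TF. For FTL it was 0.77, for ACO1 0.74 and for SLC11A2 −0.81, and these differences could not be tested because they use the only residual degree of freedom.

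The 96 other genes of iron biology, in 8 lists, were followed for comparison. Of 84 tested, 4 rose and 1 fell under OTX-015 (5.95%, against 6.32% of all genes), with a median effect of 0.16, against 0.03 for all genes. Between the lines 5 rose and 8 fell in wtBRCA1 cells (15.5%, against 8.29% of all genes), with a median effect of −0.13, against 0.05 for all genes. For each list below, the shares of all genes are 3.66% higher and 2.67% lower for OTX-015, and 4.88% higher and 3.41% lower for the line. With so few genes per list, no list was tested against these shares. The lists hold none of the 10 genes and were chosen with results of these data known. Most line calls in the lists were lost under some settings, and 3 of 13 stayed with no filter and 1 without the variance trend.

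In heme synthesis 1 of 11 tested genes rose under OTX-015 and none fell, and the median effect was 0.62, against 0.03 for all genes. The gene was ALAD, which joins the first pyrrole ring, with 33.4 and 8.67 FPKM in wtBRCA1 cells and 20.5 and 4.57 FPKM in vector cells, under OTX-015 and DMSO. Its rise was 1.89 ± 0.34 (SE; limma, adjusted p = 0.0166). Between the lines ABCB6, a porphyrin transporter, fell by 2.79 ± 0.40 in wtBRCA1 cells (SE; limma, adjusted p = 0.00336), with 1.83 and 1.25 FPKM in wtBRCA1 cells and 25.1 and 10.6 FPKM in vector cells under OTX-015 and DMSO. ABCB6 shares its locus with ATG9A, which reached 32.3 FPKM.

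In heme degradation and transport 1 of 10 tested genes fell under OTX-015 and none rose. It was BLVRA, biliverdin reductase A, which acts on the product of HMOX1, with 2.01 and 22.3 FPKM in wtBRCA1 cells and 16.3 and 36.0 FPKM in vector cells under OTX-015 and DMSO. Its effect was −2.02 ± 0.45 (SE; limma, adjusted p = 0.0323), opposite in sign to that of HMOX1. ABCG2, an exporter of porphyrins and drugs, was listed at 0 in both wtBRCA1 libraries and had 9.58 and 20.0 FPKM in vector cells under OTX-015 and DMSO. Its line effect was −3.90 ± 0.45 (SE; limma, adjusted p = 0.00122), a value that depends on the pseudocount.

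In iron import 1 of 11 tested genes rose under OTX-015, MCOLN1, a lysosomal channel that releases ferrous iron. It had 30.4 and 11.0 FPKM in wtBRCA1 cells and 40.2 and 9.83 FPKM in vector cells under OTX-015 and DMSO, a rise of 1.66 ± 0.34 (SE; limma, adjusted p = 0.0249). Its locus partner PNPLA6 reached 102 FPKM. Between the lines LCN2, lipocalin 2, which binds iron-carrying siderophores, rose in wtBRCA1 cells by 2.17 ± 0.23 (SE; limma, adjusted p = 0.000824). It had 4490 and 2137 FPKM in wtBRCA1 cells and 706 and 672 FPKM in vector cells under OTX-015 and DMSO. The ferric reductase CYBRD1 fell by 1.78 ± 0.35 (SE; limma, adjusted p = 0.0144) and the zinc and iron importer SLC39A14 fell by 1.50 ± 0.38 (SE; limma, adjusted p = 0.0402).

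In ferritin loading and turnover CTSB, a lysosomal protease, was the only 1 of 11 tested genes that changed under OTX-015. It had 309 and 117 FPKM in wtBRCA1 cells and 422 and 197 FPKM in vector cells under OTX-015 and DMSO, a rise of 1.24 ± 0.24 (SE; limma, adjusted p = 0.0214). Between the lines HERC2, a ubiquitin ligase that acts on NCOA4, rose by 1.70 and GABARAPL2, an autophagosome protein, by 1.19, while the lysosomal protease CTSD fell by 1.22. These 3 were named after their values were seen, with limma adjusted p of 0.0367, 0.0374 and 0.00558.

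In iron export and hepcidin none of 6 tested genes changed under OTX-015. Between the lines CP, ceruloplasmin, the plasma ferroxidase, rose in wtBRCA1 cells by 1.40 ± 0.30 (SE; limma, adjusted p = 0.0215), and SMAD4, which carries the signal for hepcidin, fell by 2.65 ± 0.44 (SE; limma, adjusted p = 0.00743). CP had 79.6 and 83.7 FPKM in wtBRCA1 cells and 28.7 and 32.2 FPKM in vector cells under OTX-015 and DMSO, and its locus partner HPS3 reached 63.3 FPKM. SMAD4 had 0 and 1.11 FPKM in wtBRCA1 cells and 7.33 and 9.0 FPKM in vector cells under OTX-015 and DMSO. With wtBRCA1 cells at or near 0, the size of its line effect depends on the pseudocount.

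In mitochondrial iron and iron-sulfur assembly 1 of 18 genes rose under OTX-015 and none fell. It was FDXR, ferredoxin reductase, which feeds electrons to cluster assembly, with 83.5 and 22.6 FPKM in wtBRCA1 cells and 32.9 and 9.65 FPKM in vector cells under OTX-015 and DMSO. It rose under OTX-015 by 1.75 ± 0.32 (SE; limma, adjusted p = 0.0174) and in wtBRCA1 cells by 1.23 ± 0.32 (SE; limma, adjusted p = 0.0456). NFS1, the cysteine desulfurase that supplies the sulfur, fell by 1.23 ± 0.32 (SE; limma, adjusted p = 0.0456) and was named after its values were seen. None of 9 cytosolic iron-sulfur assembly genes and none of 8 transcription factor genes passed in limma for either effect. The factor list includes NFE2L2, known as NRF2, an activator of ferritin and HMOX1, and BACH1, a repressor of HMOX1, both given after their values were seen. NFE2L2 had 34.3 and 25.7 FPKM in wtBRCA1 cells and 30.9 and 19.8 FPKM in vector cells under OTX-015 and DMSO, an effect of 0.51 (limma, adjusted p = 0.400). BACH1 had 2.65 and 1.79 FPKM in wtBRCA1 cells and 2.57 and 3.64 FPKM in vector cells under OTX-015 and DMSO, an effect of 0.01 (limma, adjusted p = 0.995).

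**Figure D4:**
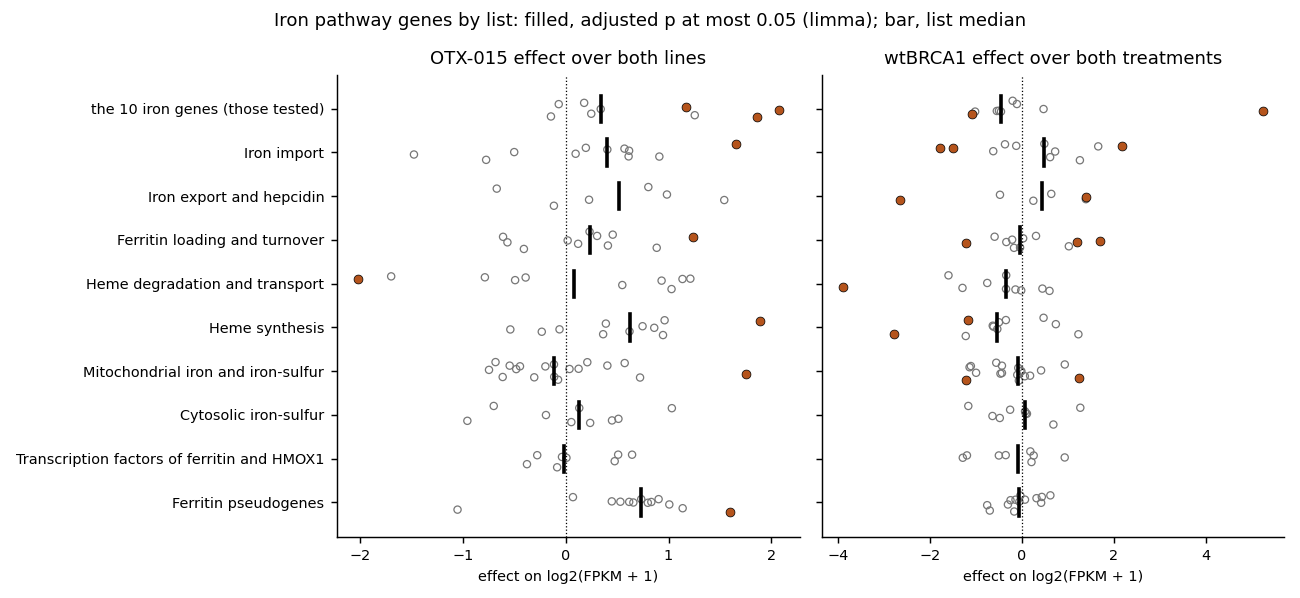
Effects on log2(FPKM + 1) of the iron genes, the 8 iron pathway lists and the ferritin pseudogenes, OTX-015 over both lines on the left and wtBRCA1 over both treatments on the right, with 1 point per tested gene, filled points at an adjusted p of at most 0.05 (limma) and bars at list medians. The 9 tested iron genes have medians of 0.34 and −0.46, and few points are filled in any list.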

How the data were processed

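Poly(A) RNA of 4 libraries was sequenced after a directional library kit, per the labels' protocols. The authors deposited FPKM values per gene, for which the submitters' processing notes name TopHat2, Cufflinks and the build hg38. Versions, annotation release and use of strand are not given in the sources used here. A search for common steps in values below 0.3 FPKM gave the same ratio to 3 decimals in no more than 4 of 588 genes, so no reads were recovered and depth is unknown.

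Values were joined by identifier (94.2% in GENCODE 29). Short structural RNAs (7455 genes) were dropped, 69 repeated symbols were summed, and 18296 genes with at least 1 FPKM in at least 1 library were kept, of which 9 were iron genes. limma 3.58.1 (R 4.3.3) was fitted to log2(FPKM + 1), which understates changes of low genes, with line and treatment as terms, a mean-variance trend and Benjamini-Hochberg adjustment. The script was tested on simulated data. Tables and figures were made with Python 3.11.15, pandas 2.3.3, numpy 2.4.6 and matplotlib 3.10.9.

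The members and lists were chosen with earlier results of these data known. Named from the lists were up to 5 genes each way per effect, by size, among those past the threshold with at least 1 log2 unit of the same sign in both comparisons. Not every list gene is reported here by name. Markers of hepatocytes, erythroid cells, macrophages, fibroblasts and endothelium were also read. Macrophage markers summed to 51.5 and 31.7 FPKM in wtBRCA1 cells and 26.5 and 16.5 FPKM in vector cells under OTX-015 and DMSO, mostly CD68. Of 4 fibroblast markers 3, and of 3 endothelial markers 1, were at 0 in every library.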

Additional observations from a re-analysis of the deposited data

Results flagged for a closer look

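The line difference of TFRC took opposite signs under the treatments. wtBRCA1 minus vector was −1.32 log2 units under OTX-015 and 0.23 under DMSO. The single high library was that of vector cells under OTX-015. IREB2 responded to OTX-015 in opposite directions in the lines, with −1.08 in wtBRCA1 cells and 0.94 in vector cells. Its line difference was −0.54 under OTX-015 and 1.48 under DMSO. Each value compares 1 library with 1 other, and none of these differences was tested.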

How the results depend on the processing

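For OTX-015, 0 iron genes passed the threshold with no filter, quantile scaling, no variance trend, or treatment as the only term, against 3 of 9 as reported. Of the 9 settings that change the processing, FTL and HMOX1 passed in 5, TFRC in 0 and AC026803.1 in 6, and quantile scaling sets its effect to 0 because it ranks first in every library. For the line effect 2 iron genes passed as reported and 1 with a filter of 5 FPKM, no filter, quantile scaling, no trend or line as the only term. TF passed in 9 of these 9 settings, FTL in 4 and AC026803.1 in 3. With a library left out the other factor had to be dropped too, and 0 to 0 of all genes passed for either effect, so these fits say nothing about calls of iron genes.

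Over all genes, 1157 passed for OTX-015, against 756 and 453 with pseudocounts of 0.1 and 5, 522 with a filter of 5 FPKM, 81 with none, 592 with median-of-ratios scaling, 67 with quantile scaling, 4 without the trend, and 1 with treatment as the only term. For the line 1516 passed, against 861 with a pseudocount of 5, 825 with a filter of 5 FPKM, 503 with none, 697 with quantile scaling, 173 without the trend, and 57 with line as the only term. At an unadjusted p of at most 0.05 limma gave 2303 higher and 1867 lower for OTX-015, and 2414 higher and 1879 lower for the line. Of the 6 list genes called for OTX-015, 0 stayed with no filter, quantile scaling, no trend or treatment as the only term. Of the 13 called for the line, 8 and 7 stayed with pseudocounts of 0.1 and 5, 6 with a filter of 5 FPKM, 3 with none, 7 with median-of-ratios and 6 with quantile scaling, 1 without the trend, 13 with robust estimation and 0 with line as the only term. In vector cells 5 iron genes were at least 2-fold apart with a pseudocount of 0.1 and 2 with quantile scaling, against 3. The causes were not tested.

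Signs also turned. The OTX-015 effect on TF was −0.63 with a pseudocount of 0.1, that on FTH1 was −0.19 with quantile scaling, and the line effect on FTH1 with BEST1 added, an alternative chosen after seeing the data, was 0.0349. Leaving out each library, with only the tested factor as a term and so with the factors unbalanced, gave OTX-015 effects of −2.73 to 3.08 for TF, −0.45 to 0.16 for SLC11A2 and −0.81 to 0.67 for IREB2. Line effects were −1.52 to 0.43 for TFRC, −1.67 to 0.67 for HMOX1, −1.92 to 1.24 for AC026803.1, −0.0706 to 1.01 for IREB2, −0.18 to 0.33 for BEST1, −0.48 to 0.0725 for SLC11A2, −2.21 to 0.0365 for FTL and −0.28 to 0.0636 for FTH1. Of these, FTL and AC026803.1 had passed for the line effect.

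No pairing of replicates was possible because each group has 1 library, so the groups share 1 replicate number. The reported fit already compares treatments within lines, and the fits with 1 term do not.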
